A study of Mus musculus with 8 samples.

Results

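Collagens are secreted or membrane-bound proteins whose chains wind in threes into a triple helix and give connective tissue and basement membranes their strength. In the eye, type IV chains form the sheet-like network of the inner limiting membrane, of vessel walls and of the lens capsule, while types II, IX and XI make up the thin fibrils of the vitreous gel. The collagen genes described here are all rows of the expression table whose symbol has the form Col, a number, a and a number. The table holds 44 such symbols among 24860 genes, and 18 of them had a mean of at least 1 FPKM over the 8 libraries. FPKM counts fragments per length of transcript and per depth of the library. It is a relative level, so a value also depends on what other RNA the library holds.

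The data are 8 RNA-seq libraries of mouse retina, with RGCs (retinal ganglion cells) as the labelled cell type. 4 libraries are of the AAV2-shCX36 group, in which an adeno-associated virus carries a hairpin directed at connexin 36, which forms gap junctions between neurons. The remaining 4 are of the AAV2-scramble group, whose hairpin is named as scrambled, and the virus is therefore shared by both groups. The labels give no strain, genotype, age, sex, dose, time after injection, injury, cell sorting or batch, nor the mice behind each library. The p-values therefore reflect only how far these libraries differ among themselves, which may be technical. Between 35820931 and 38890840 fragments were counted per library. Rod markers summed to 983 to 1388 FPKM in AAV2-shCX36 libraries and 1552 to 2216 FPKM in AAV2-scramble libraries, so the libraries hold photoreceptor RNA beside that of ganglion cells, whose 12 markers summed to 2818 to 3023 and 1709 to 2969 FPKM. Gjd2, the targeted gene, had 17, 14, 14.6 and 16.6 FPKM in AAV2-shCX36 libraries 1 to 4, against 38.7, 35.9, 17.4 and 18.2 FPKM in AAV2-scramble libraries 1 to 4. The groups did not overlap (two-sided exact permutation test over 70 relabellings, p = 0.0286, the smallest possible), and the limma adjusted p over all genes was 0.148.

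Collagen expression was low to moderate, and 1 of the 18 tested genes changed. Col6a2, a chain of the beaded filaments of type VI collagen, rose, and none fell (limma on log2(FPKM + 1), Benjamini-Hochberg adjusted p under 0.05). That is 5.56% of the 18 called higher, beside 2.24% of 12858 tested genes called higher and 2.52% called lower. At an unadjusted p under 0.05 there were 4 collagens higher and 2 lower, beside 12.3% and 10.3% of all tested genes. The 4 were Col6a2, Col5a3, Col4a1 and Col4a2, and the 2 were Col2a1 and Col9a1. In all, 8 of the 18 were higher and 10 lower, with a median log2 difference of -0.07 against 0.01 over all tested genes. The groups did not overlap for Col6a2 and Col5a3, both higher, where 8.85% of all tested genes were higher and 7.05% lower without overlap. Col5a3 reached the filter only through AAV2-shCX36, with a control mean under 1 FPKM, so its place in these counts is no support for a direction.

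**Figure D1:**
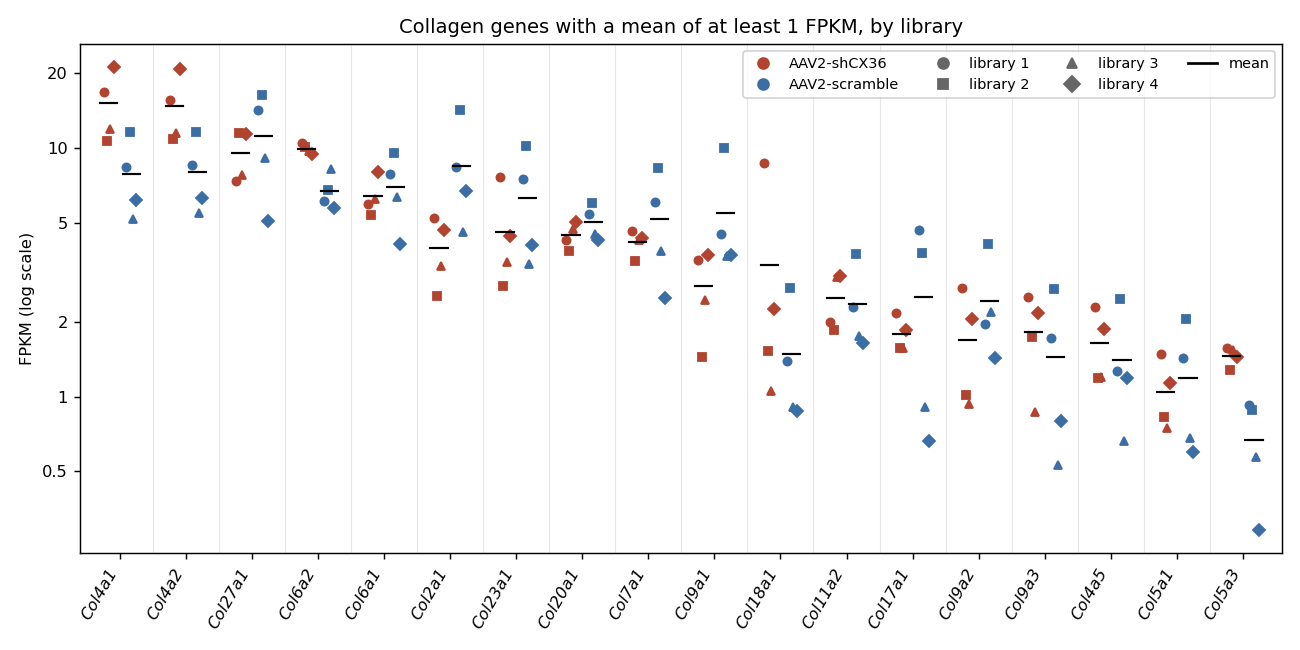
FPKM on a log scale of the 18 tested collagens, ordered by that mean, with a symbol per library, red for AAV2-shCX36 and blue for AAV2-scramble, and a black line at each mean of 4. Col6a2 and Col5a3 have every red point above every blue one, whereas in most other genes AAV2-scramble 2 (blue square) lies at or near the top.

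Type VI collagen is built from alpha1, alpha2 and one further chain, and surrounds cells and basement membranes as beaded microfilaments. Col6a2 had 10.5, 10.1, 9.77 and 9.49 FPKM in AAV2-shCX36 libraries 1 to 4, against 6.12, 6.80, 8.22 and 5.76 FPKM in AAV2-scramble libraries 1 to 4. The 4 AAV2-shCX36 values lay close together and all above the highest control. The means were 9.96 ± 0.424 and 6.72 ± 1.08 FPKM (SD, n = 4 each), from 9005 and 6088 fragments in all, a log2 difference of 0.51 ± 0.10 (SE; limma, adjusted p = 0.0242). With each library left out in turn the log2 difference was 0.45 to 0.60 and the adjusted p 0.0141 to 0.0835, passing without AAV2-scramble 2, 3 or 4 and in none of the other 5 omissions. It was 0.56 without AAV2-scramble 3 and 4 (adjusted p = 0.00371) and 0.47 without AAV2-scramble 1 and 2 (adjusted p = 0.0536).

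Col6a1, which lies on the same strand of chromosome 10 (GRCm38.p6, 76708792 to 76726044) as Col6a2 (76595756 to 76623630), did not pass. It had 5.97, 5.37, 6.23 and 8.04 FPKM in AAV2-shCX36 libraries, against 7.87, 9.60, 6.36 and 4.11 FPKM in AAV2-scramble libraries, a log2 difference of -0.07 ± 0.21 (adjusted p = 0.874). The ratio of Col6a1 to Col6a2 FPKM was 0.57, 0.53, 0.64 and 0.85 in AAV2-shCX36 libraries and 1.29, 1.41, 0.77 and 0.71 in AAV2-scramble libraries, so AAV2-scramble 1 and 2 set the higher control mean (two-sided exact permutation test, p = 0.0857, a ratio chosen after its values were seen). That further chain can be Col6a3, which was scarce in both groups, with means of 0.244 FPKM in AAV2-shCX36 and 0.0163 FPKM in AAV2-scramble libraries. It had 159, 19, 45 and 177 fragments in AAV2-shCX36 libraries 1 to 4, against 8, 5, 0 and 14 fragments in AAV2-scramble libraries 1 to 4. The 0 allows up to 3 fragments, or 0.00729 FPKM. The highest Col6a3 level was 0.434 FPKM, below the filter of the main test. In limma's voom model on counted fragments it did not pass (log2 4.05 ± 1.60, adjusted p = 0.198). Col6a4, Col6a5 and Col6a6, alternatives to Col6a3, did not exceed 0.26 FPKM in any library.

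The basement membrane chains Col4a1 and Col4a2 were the most abundant collagens by their mean over the 8 libraries, and their levels followed each other from library to library. Col4a1 had 16.9, 10.7, 11.9 and 21.2 FPKM in AAV2-shCX36 libraries 1 to 4, against 8.40, 11.6, 5.19 and 6.17 FPKM in AAV2-scramble libraries 1 to 4. Col4a2 had 15.6, 10.9, 11.5 and 20.9 FPKM in AAV2-shCX36 libraries, against 8.55, 11.6, 5.48 and 6.32 FPKM in AAV2-scramble libraries. In both genes AAV2-shCX36 libraries 1 and 4 were highest, and AAV2-scramble 2 was the only control inside the AAV2-shCX36 range. The log2 differences were 0.88 ± 0.26 for Col4a1 (limma, adjusted p = 0.0908) and 0.81 ± 0.24 for Col4a2 (adjusted p = 0.1), so neither passed. At an adjusted p under 0.1 there were 3 collagens higher, Col4a1 beside Col6a2 and Col5a3, and none lower, with 4.44% of all tested genes higher and 4.53% lower. The ratio of Col4a1 to Col4a2 stayed between 0.978 and 1.08 in AAV2-shCX36 libraries and between 0.946 and 0.994 in AAV2-scramble libraries (two-sided exact permutation test, p = 0.0857, a ratio chosen after its values were seen).

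These chains form 1 trimer and their genes lie head to head on chromosome 8, so the promoter windows are shown for the pair that moved together, with that of Col6a2 for the gene that passed. Each window runs from 250 bases before to 50 bases after a RefSeq start on GRCm38.p6, and capitals mark CCAAT and GGGCGG on either strand. The Col4a1 window is chr8:11312777-11313076 (minus strand), that of Col4a2 chr8:11312555-11312854 (plus strand) and that of Col6a2 chr10:76623581-76623880 (minus strand, the outer of 2 starts).
Col4a1: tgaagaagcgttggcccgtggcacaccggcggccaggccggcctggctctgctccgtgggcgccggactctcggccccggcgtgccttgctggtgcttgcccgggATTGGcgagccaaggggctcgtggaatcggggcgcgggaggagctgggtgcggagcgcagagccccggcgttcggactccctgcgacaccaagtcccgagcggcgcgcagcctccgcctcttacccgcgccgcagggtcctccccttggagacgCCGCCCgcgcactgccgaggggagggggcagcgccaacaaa
Col4a2: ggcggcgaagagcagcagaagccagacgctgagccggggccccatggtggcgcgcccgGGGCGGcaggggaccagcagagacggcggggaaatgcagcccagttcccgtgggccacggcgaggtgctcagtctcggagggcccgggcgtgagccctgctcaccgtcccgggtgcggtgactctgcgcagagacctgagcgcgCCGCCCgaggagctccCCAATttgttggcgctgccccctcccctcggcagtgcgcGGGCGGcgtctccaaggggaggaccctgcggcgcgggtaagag
Col6a2: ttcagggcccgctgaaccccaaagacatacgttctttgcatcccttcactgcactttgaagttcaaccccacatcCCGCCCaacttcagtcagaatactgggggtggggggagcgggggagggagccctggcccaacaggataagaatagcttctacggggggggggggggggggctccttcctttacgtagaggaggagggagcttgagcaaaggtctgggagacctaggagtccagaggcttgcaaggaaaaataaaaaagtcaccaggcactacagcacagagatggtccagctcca
The Col4a1 and Col4a2 windows share 78 bases, with starts 21 bases apart. In GENCODE vM21 the 2 genes share 22 exonic bases on opposite strands, and the labels do not say whether reads were counted by strand. CCAAT occurs 1 time in each of them and not in the Col6a2 window. GGGCGG occurs 1 time in the Col4a1, 3 times in the Col4a2 and 1 time in the Col6a2 window. Of all 32851 RefSeq windows of this length, 37.4% hold CCAAT and 35.7% GGGCGG. Of the 38 windows of 35 collagen genes, 13 hold CCAAT and 23 GGGCGG. TTCNNNGAA, the spacing bound by STAT factors, and TATAAA occur in none of the 3 windows, and in 8.3% and 13.6% of all windows.

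Lens and vessel transcripts were uneven across the same libraries. The 13 lens markers summed to 158, 15.9, 24.1 and 351 FPKM in AAV2-shCX36 libraries 1 to 4, against 6.60, 5.63, 10.1 and 17.8 FPKM in AAV2-scramble libraries 1 to 4, with Cryaa at 5.79 to 236 and 0.108 to 7.72 FPKM. The 4 AAV2-shCX36 libraries had the same order in the lens sum as in Col4a1 and Col4a2, but the controls did not. Among them AAV2-scramble 2 had the lowest lens sum, 5.63 FPKM, and the most Col4a1 and Col4a2, 11.6 FPKM each. None of the 7 lens markers tested passed in limma, and 5 were higher at an unadjusted p under 0.05, beside 12.3% of all tested genes. Of the 7, Crybb2 had 0.0168, 0.0178, 0.574 and 1.54 FPKM in AAV2-scramble libraries 1 to 4, a mean under 1 FPKM. It was tested only through AAV2-shCX36, so this count is no support for a direction. The 12 endothelial markers summed to 120, 99.6, 92.3 and 191 FPKM in AAV2-shCX36 libraries, against 164, 214, 64.5 and 41.1 FPKM in AAV2-scramble libraries, and none passed in limma or had an unadjusted p under 0.05. Without AAV2-shCX36 1 and 4 the log2 difference was 0.53 for Col4a1 and 0.49 for Col4a2 (adjusted p = 0.426 and 0.437). The part of lens and vessel RNA in these differences was not tested, and in bulk samples fewer cells of a type and less RNA per cell cannot be told apart.

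**Figure D2:**
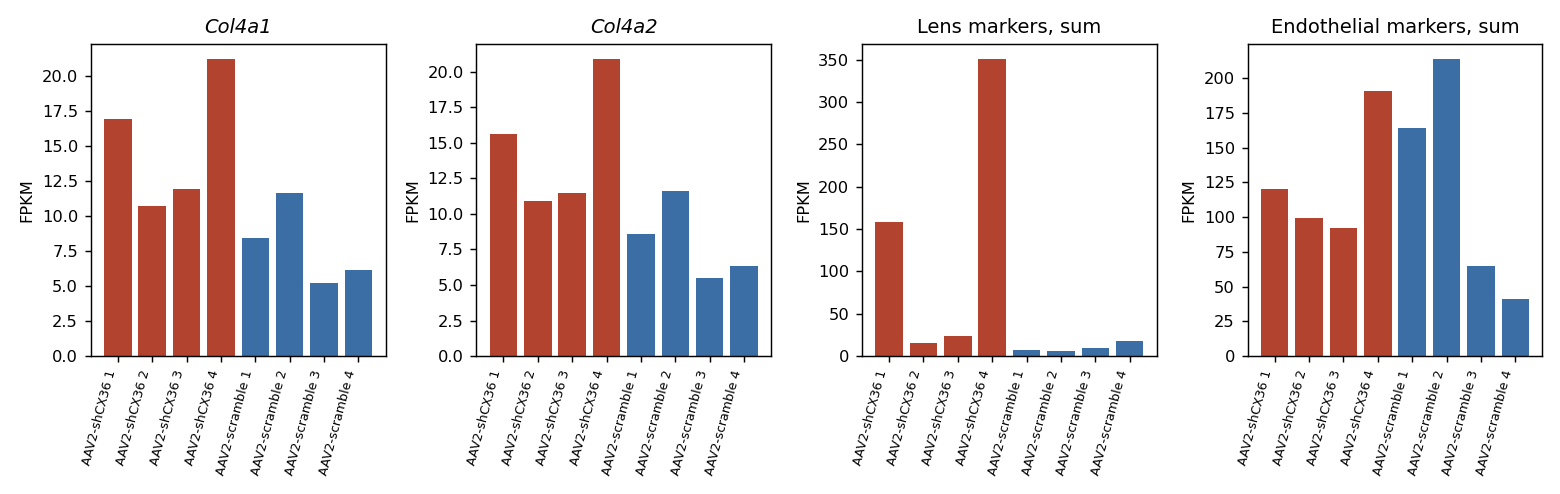
FPKM of Col4a1 and Col4a2 and summed FPKM of 13 lens and 12 endothelial markers, with a bar per library, AAV2-shCX36 in red and AAV2-scramble in blue. The lens sum reaches 158 and 351 FPKM in AAV2-shCX36 1 and 4, the libraries with the most Col4a1, and the endothelial sum is highest in AAV2-scramble 2 at 214 FPKM. Among the controls AAV2-scramble 2 has the most Col4a1 and the lowest lens sum.

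The minor type IV chains were scarcer. Col4a5 had 2.29, 1.19, 1.2 and 1.87 FPKM in AAV2-shCX36 libraries and 1.27, 2.47, 0.664 and 1.19 FPKM in AAV2-scramble libraries, with overlapping groups (log2 0.17 ± 0.23, adjusted p = 0.71). Its partner Col4a6, which starts 1275 bases away on the opposite strand of the X chromosome, stayed at 0.456 to 1.19 FPKM in AAV2-shCX36 libraries and 0.0936 to 0.672 FPKM in AAV2-scramble libraries. Col4a3 and Col4a4, the head-to-head pair of chromosome 1 whose chains join Col4a5 in kidney basement membrane, were again highest in AAV2-shCX36 4. Col4a3 had 300, 200, 150 and 355 fragments in AAV2-shCX36 libraries, against 37, 57, 80 and 199 fragments in AAV2-scramble libraries. Col4a4 had 266, 146, 82 and 416 fragments in AAV2-shCX36 libraries, against 77, 86, 72 and 178 fragments in AAV2-scramble libraries. In both genes AAV2-scramble 4 was the highest control and overlapped the other group. All 6 type IV chains had a higher mean in AAV2-shCX36, where the median log2 difference over all tested genes was 0.01. Of the 3 in the main test none passed. Col4a3, Col4a4 and Col4a6 lay below its filter. In limma's voom model, with a minimum mean of 10 fragments, they did not pass (log2 1.63, 0.99 and 1.46, adjusted p = 0.0982, 0.338 and 0.18).

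Among the fibrillar collagens Col5a3 and Col2a1 had the smallest unadjusted p, in opposite directions. Col5a3, the alpha3 chain of type V collagen, which regulates fibril diameter, had 1.57, 1.28, 1.54 and 1.44 FPKM in AAV2-shCX36 libraries, against 0.926, 0.885, 0.574 and 0.290 FPKM in AAV2-scramble libraries. The groups did not overlap, and the means were 1.46 ± 0.128 and 0.669 ± 0.297 FPKM (log2 0.58 ± 0.15, adjusted p = 0.0613). Since the control mean was under 1 FPKM, the gene was tested only because it was high in AAV2-shCX36, and it fell under the filter without AAV2-shCX36 1, without 3, and without 1 and 4. Col2a1, the main chain of vitreous and cartilage fibrils, had 5.26, 2.54, 3.37 and 4.70 FPKM in AAV2-shCX36 libraries, against 8.39, 14.2, 4.6 and 6.74 FPKM in AAV2-scramble libraries. The highest AAV2-shCX36 values overlapped the lowest control (log2 -0.87 ± 0.29, adjusted p = 0.132). Col27a1, a fibrillar collagen known from cartilage, was among the most abundant members at 7.37 to 11.5 FPKM in AAV2-shCX36 libraries and 5.11 to 16.4 FPKM in AAV2-scramble libraries (log2 -0.13 ± 0.31, adjusted p = 0.841). Col11a2 had means of 2.49 ± 0.645 and 2.36 ± 0.963 FPKM and Col5a1 of 1.05 ± 0.333 and 1.19 ± 0.686 FPKM in AAV2-shCX36 and AAV2-scramble libraries (adjusted p = 0.864 and 0.901). Col1a1, the principal chain of skin, bone and scleral collagen, did not exceed 0.23 FPKM in any library.

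Type IX collagen decorates type II fibrils, and none of its 3 chains passed. Col9a1 had 3.54, 1.44, 2.45 and 3.73 FPKM in AAV2-shCX36 libraries, against 4.52, 10, 3.67 and 3.70 FPKM in AAV2-scramble libraries. AAV2-scramble 2 stood far above the other controls, of which libraries 3 and 4 lay just under the highest AAV2-shCX36 value (log2 -0.72 ± 0.31, adjusted p = 0.204). Col9a2 averaged 1.69 ± 0.873 FPKM in AAV2-shCX36 and 2.43 ± 1.17 FPKM in AAV2-scramble libraries (log2 -0.35 ± 0.28, adjusted p = 0.487). Col9a3 averaged 1.83 ± 0.716 and 1.44 ± 0.992 FPKM (log2 0.26 ± 0.30, adjusted p = 0.644). Together Col2a1 and the 3 type IX chains summed to 14.1, 6.73, 7.62 and 12.7 FPKM in AAV2-shCX36 libraries, against 16.6, 31, 11 and 12.7 FPKM in AAV2-scramble libraries. Markers of ciliary body and iris, a known source of vitreous collagen, summed to 11.2, 6.26, 5.63 and 13.1 FPKM in AAV2-shCX36 libraries and 19.4, 22.1, 3.75 and 1.68 FPKM in AAV2-scramble libraries, and cartilage markers to at most 0.666 and 1.44 FPKM. Without Wfdc1, the most abundant ciliary marker, that list came to 2.55, 1.23, 1.79 and 2.87 against 2.71, 4.05, 1.34 and 0.841 FPKM. The part of ciliary body, iris or cartilage in these values was not tested. Col20a1, a further fibril-associated collagen, lay at 3.84 to 5.03 FPKM in AAV2-shCX36 and 4.26 to 6 FPKM in AAV2-scramble libraries (log2 -0.14 ± 0.12, adjusted p = 0.508).

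**Figure D3:**
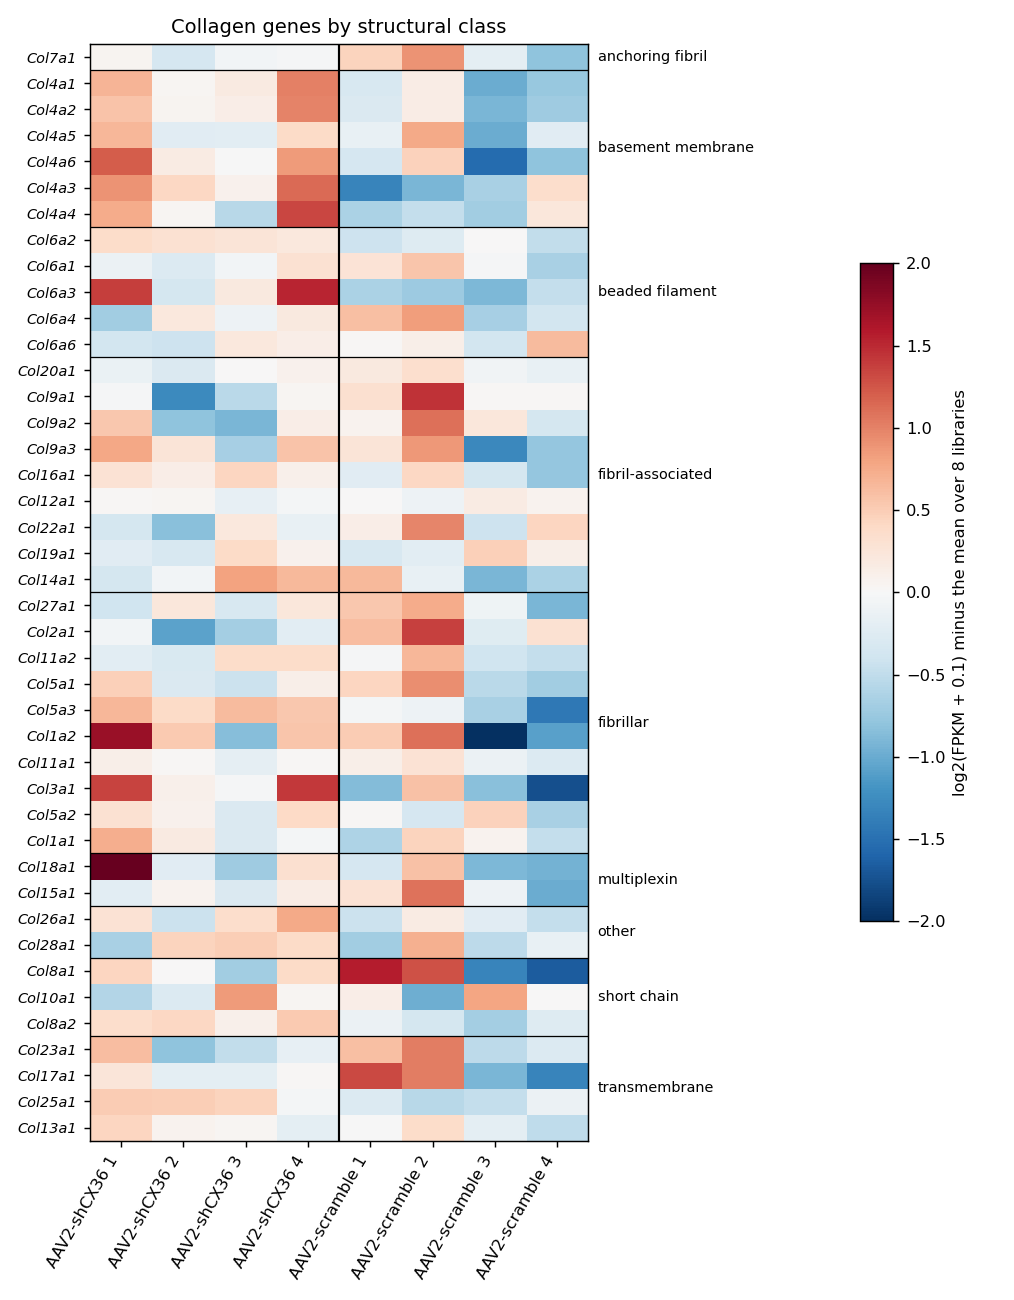
Level of the 42 collagen genes with a mean of at least 10 fragments in each library, as log2(FPKM + 0.1) minus the mean of the gene over the 8 libraries, grouped by structural class, with AAV2-shCX36 left of the black line. In 5 of the 6 type IV rows the highest library is AAV2-shCX36 1 or 4, Col4a5 being the exception, and in all 3 type IX rows it is AAV2-scramble 2.

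The remaining tested members were an anchoring fibril, a multiplexin and membrane collagens. Col7a1, which anchors epithelial basement membranes to the stroma, had 4.63, 3.5, 4.26 and 4.36 FPKM in AAV2-shCX36 libraries, against 6.08, 8.30, 3.87 and 2.50 FPKM in AAV2-scramble libraries (log2 -0.16 ± 0.26, adjusted p = 0.757). Col18a1, a basement membrane collagen whose released end is endostatin, had 8.69, 1.52, 1.05 and 2.26 FPKM in AAV2-shCX36 libraries, against 1.39, 2.75, 0.911 and 0.876 FPKM in AAV2-scramble libraries. Library 1 alone carried the higher mean (log2 0.58 ± 0.45, adjusted p = 0.479), and without it the log2 difference was 0.11. Col17a1, the hemidesmosomal transmembrane collagen, had 2.17, 1.57, 1.57 and 1.85 FPKM in AAV2-shCX36 libraries, against 4.69, 3.77, 0.910 and 0.663 FPKM in AAV2-scramble libraries. All 4 AAV2-shCX36 values thus fell between AAV2-scramble 1 and 2 above and AAV2-scramble 3 and 4 below (log2 -0.13 ± 0.38, adjusted p = 0.871). Col23a1, also a transmembrane collagen, had 7.68, 2.79, 3.47 and 4.43 FPKM in AAV2-shCX36 libraries, against 7.52, 10.2, 3.43 and 4.09 FPKM in AAV2-scramble libraries (log2 -0.36 ± 0.34, adjusted p = 0.561).

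The split within the controls ran through the collagens. AAV2-scramble 1 and 2 both exceeded AAV2-scramble 3 and 4 in 16 of the 18 tested members, all except Col6a2 and Col9a2, and in 35.3% of all tested genes. AAV2-scramble 2 was the highest of the 8 libraries for 12 members and AAV2-scramble 4 the lowest for 9. AAV2-shCX36 1 and 4 both exceeded 2 and 3 in 12 of the 18, and in 24.9% of all tested genes. Nothing in the labels (batch, date, litter) could be set against these splits, and AAV2-scramble 1 and 2 also carried more oligodendrocyte RNA, with Mbp at 9.13 and 21.9 FPKM against 3.55 and 4.53 FPKM in AAV2-scramble 3 and 4. Endothelial markers (164 and 214 FPKM against 64.5 and 41.1 FPKM), ciliary body and iris markers (19.4 and 22.1 against 3.75 and 1.68 FPKM) and microglia and macrophage markers (554 and 547 against 275 and 136 FPKM) split the same way. Without Wfdc1 the ciliary body and iris list came to 2.71 and 4.05 against 1.34 and 0.841 FPKM. Pericyte and smooth muscle markers without Vtn (47.2 and 59.9 against 19.3 and 7.52 FPKM) also did, while Vtn itself did not (100 and 120 against 125 and 111 FPKM). Rod markers (1552 and 1842 against 2196 and 2216 FPKM), ganglion cell markers (2207 and 1709 against 2628 and 2969 FPKM) and lens markers (6.60 and 5.63 against 10.1 and 17.8 FPKM) ran the other way. The part of any of these cells in the collagen values was not tested.

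The sign of several members depended on which controls were kept. AAV2-scramble 1 and 2 exceeded 3 and 4 in 16 of the 18 tested members. Leaving out either pair therefore moves the difference of those 16 by construction, and these fits are no support apart from that split. Without AAV2-scramble 1 and 2, 4 of 17 collagens rose (23.5%, beside 4.43% of all genes tested there) and none fell (3.08% of all genes, 0 collagens at an unadjusted p under 0.05). The 4 were Col4a1 (log2 1.23, adjusted p = 0.0234), Col4a2 (1.15, adjusted p = 0.0251), Col5a3 (0.79, adjusted p = 0.0177) and Col17a1 (0.64, adjusted p = 0.0367). In AAV2-scramble 3 and 4 the means of Col5a3 and Col17a1 were 0.432 and 0.786 FPKM. Both passed the filter there only through AAV2-shCX36, so these 2 calls are no support for a direction. Without AAV2-scramble 3 and 4, Col6a2 rose (11.9% of all genes called higher there) and 5 of 18 fell (27.8%, beside 14.8% of all genes). The 5 were Col2a1 (-1.30, adjusted p = 0.0108), Col9a1 (-1.09, adjusted p = 0.0416), Col17a1 (-0.91, adjusted p = 0.00434), Col7a1 (-0.65, adjusted p = 0.0131) and Col27a1 (-0.65, adjusted p = 0.0333). Col17a1 thus passed in opposite directions against the 2 pairs of controls. Without AAV2-shCX36 1 and 4 no collagen was called in limma, where 0.531% of all genes were called higher and 0.219% lower. At an unadjusted p under 0.05 there were 1 higher and 3 lower of 17. The share of all genes at that unadjusted threshold is not given for this fit, so these counts are no support for a direction. Col4a1, Col4a2, Col5a3, Col18a1 and Col6a2 kept a positive, and Col2a1, Col9a1 and Col9a2 a negative log2 difference against either pair of controls. These signs come from the same fits and are no support for a direction. Col5a3 passed the filter only through AAV2-shCX36. The log2 difference of Col18a1 was 0.11 without AAV2-shCX36 1 and -0.07 without AAV2-shCX36 1 and 4.

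**Figure D4:**
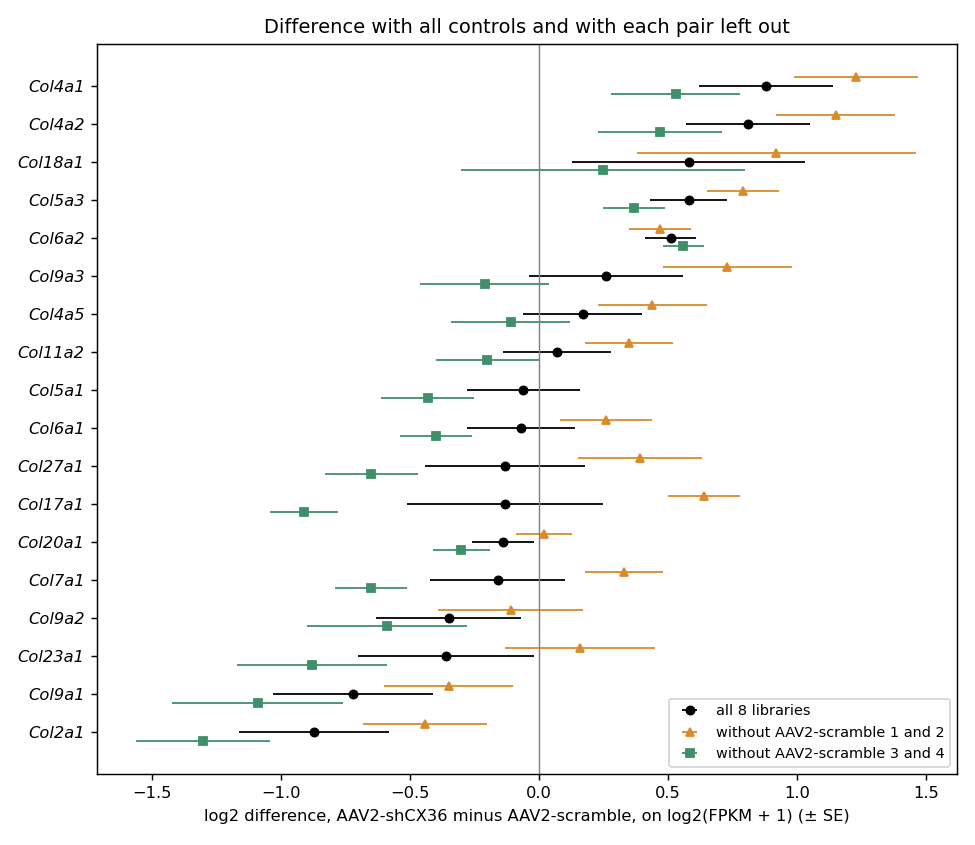
Difference of log2(FPKM + 1), AAV2-shCX36 less AAV2-scramble, with its standard error, for the 18 tested collagens with all 8 libraries (black), without AAV2-scramble 1 and 2 (orange) and without AAV2-scramble 3 and 4 (green). Col6a2 keeps 0.47 to 0.56 in the 3 fits, whereas Col17a1 lies at 0.64 in orange and -0.91 in green; Col5a1 fell under the filter in the orange fit.

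The other 26 collagens stayed below a mean of 1 FPKM, and 9 of them reached it in at least 1 library. The highest such value was 1.95 FPKM, of Col1a2 in AAV2-shCX36 1. Since their transcripts are long, these levels rest on whole fragments that could be recovered from the table. In limma's voom model on the recovered fragments, with a minimum mean of 10 fragments, 42 of the 44 collagens could be fitted. In the same model over the 12858 genes of the main test 1 collagen rose and none fell, beside 1.94% and 2.31% of all genes. Col6a2 alone passed (log2 0.58 ± 0.11, adjusted p = 0.0231), which is 2.38% of the 42 beside 1.54% of 17240 genes called higher and 1.64% called lower. Col25a1, a transmembrane collagen of neurons, came nearest among the scarce members. It had 399, 385, 365 and 258 fragments in AAV2-shCX36 libraries, against 217, 163, 184 and 252 fragments in AAV2-scramble libraries, so the lowest AAV2-shCX36 library lay just above the highest control (voom log2 0.78 ± 0.20, adjusted p = 0.066). The groups did not overlap in 3 of the 26, Col25a1, Col6a3 and Col8a2, all higher, where 8.08% of the 17240 genes were higher without overlap. Over all AAV2-scramble libraries Col6a3 and Col8a2 had 27 and 18 fragments, a mean under 10. They reached that minimum only through AAV2-shCX36, so they are no support for a direction. The 26 also include members under that minimum. Col8a2, a short-chain collagen of Descemet's membrane, had 12 to 22 fragments in AAV2-shCX36 libraries and 0 to 8 in AAV2-scramble libraries (voom log2 2.42 ± 0.89, adjusted p = 0.169).

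Col3a1 and Col1a2, interstitial collagens of fibroblasts and vessel walls, were low and uneven. Col3a1 had 213, 76, 67 and 220 fragments in AAV2-shCX36 libraries, against 29, 109, 30 and 6 fragments in AAV2-scramble libraries (voom log2 2.19 ± 0.82, adjusted p = 0.178). Col1a2 had 389, 155, 47 and 159 fragments in AAV2-shCX36 libraries, against 155, 228, 2 and 39 fragments in AAV2-scramble libraries (adjusted p = 0.43). In both genes AAV2-scramble 2 lay inside the AAV2-shCX36 range, and in Col1a2 AAV2-scramble 1 did too. Lum and Dpt, which mark fibroblasts, did not exceed 0.0155 FPKM in any library, and Dcn reached 0.461 FPKM. The whole list of 11 fibroblast, scleral and meningeal markers was carried by Cd34, which vessels also express, at 9.26 to 17.8 FPKM in AAV2-shCX36 and 2.69 to 20.2 FPKM in AAV2-scramble libraries, and the other markers together came to 3.57 to 5.02 and 3.06 to 6.65 FPKM. Col15a1, a multiplexin, had 79 to 116 fragments in AAV2-shCX36 libraries, against 132, 231, 96 and 43 in AAV2-scramble libraries. Col8a1, a short-chain collagen of vessel walls and Descemet's membrane, had 40 to 114 fragments in AAV2-shCX36 libraries, against 272, 208, 20 and 12 in AAV2-scramble libraries. In both, AAV2-scramble 1 and 2 lay above every AAV2-shCX36 library and AAV2-scramble 4 below the lowest. Col26a1 had 60 to 157 fragments in AAV2-shCX36 and 60 to 94 in AAV2-scramble libraries. The members that never reached 1 FPKM had at most 0.865 FPKM, in Col16a1. Col6a5 was the scarcest, with 4 fragments over all AAV2-shCX36 and 1 over all AAV2-scramble libraries.

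**Figure D5:**
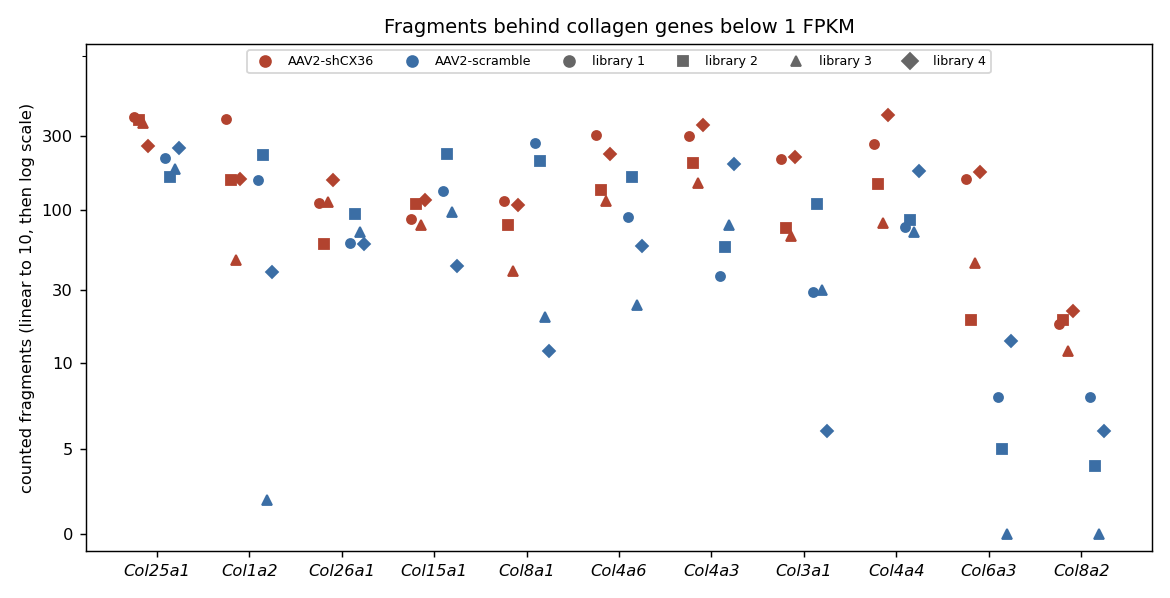
Counted fragments per library, linear to 10 and logarithmic above, of the collagens below a mean of 1 FPKM that reach 1 FPKM in a library or whose groups do not overlap, red for AAV2-shCX36 and blue for AAV2-scramble. Col6a3 lies at 19 to 177 fragments in AAV2-shCX36 and 0 to 14 in AAV2-scramble libraries.

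Genes that fold, process, bind and degrade collagen gave no call. Of 98 such genes in 6 lists 68 were tested, and none passed in limma over all genes or in voom, while at an unadjusted p under 0.05 there were 8 higher and 2 lower. These are 11.8% and 2.94% of the 68, beside 12.3% and 10.3% of all tested genes, so the share higher was near that of all genes. Their median log2 difference was 0.04. Among 21 enzymes and chaperones of the endoplasmic reticulum, where chains are hydroxylated, glycosylated and folded, 1 had an unadjusted p under 0.05. It was Colgalt2, which puts galactose on hydroxylysine, at 8.71 ± 0.582 FPKM in AAV2-shCX36 and 6.89 ± 0.632 FPKM in AAV2-scramble libraries (adjusted p = 0.0712). Of 8 genes of extracellular processing and crosslinking, Tgm2, tissue transglutaminase, had 16.6, 9.49, 8.97 and 10.2 FPKM in AAV2-shCX36 libraries, against 4.18, 7.11, 3.11 and 1.21 FPKM in AAV2-scramble libraries. Its groups did not overlap (log2 1.44 ± 0.36, adjusted p = 0.0553). Adamts3, a procollagen N-proteinase, had 3.82 ± 0.647 and 5.02 ± 0.652 FPKM (adjusted p = 0.163).

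Of 11 collagenases, other degradation genes and inhibitors 3 had an unadjusted p under 0.05, all higher. Timp1, a metalloproteinase inhibitor, had 3.10, 1.29, 1.97 and 1.44 FPKM in AAV2-shCX36 libraries, against 0.444, 0.595, 1.13 and 0.260 FPKM in AAV2-scramble libraries, with no overlap (log2 0.86 ± 0.22, adjusted p = 0.0611). Its control mean was 0.606 FPKM, so it too passed the filter only through AAV2-shCX36. Mmp15, a membrane-type metalloproteinase, averaged 12.4 ± 0.856 and 10.4 ± 1.10 FPKM, and Mmp9, a gelatinase, 4.48 ± 0.789 and 3.32 ± 0.699 FPKM (adjusted p = 0.148 and 0.200). Of 4 collagen receptor genes Itgb1, the common integrin beta chain, had 27.9 ± 1.87 and 22.9 ± 3.21 FPKM (adjusted p = 0.137). Of 11 matrix partners Nid1, which links laminin to type IV collagen, had 5.92, 1.40, 1.71 and 5.09 FPKM in AAV2-shCX36 libraries, against 1.52, 1.97, 0.576 and 0.909 FPKM in AAV2-scramble libraries, again highest in AAV2-shCX36 1 and 4 (adjusted p = 0.191). Tgfbi, a collagen-binding matrix protein, averaged 4.74 ± 2.65 and 2.06 ± 0.885 FPKM (adjusted p = 0.166). Of 13 genes of TGF-beta signalling, a known inducer of collagen transcription, Tgfbr1 averaged 5.81 ± 0.548 and 11.7 ± 5.74 FPKM (adjusted p = 0.174). Its controls were 17.1 and 16.1 FPKM in AAV2-scramble 1 and 2 and 8.53 and 5.28 FPKM in 3 and 4. Without AAV2-scramble 3 and 4, 20 of 71 handling genes fell (28.2%, beside 14.8% of all genes) and 3 rose (4.23%, beside 11.9%). Without AAV2-scramble 1 and 2, 8 of 67 rose (11.9%, beside 4.43% of all genes) and 0 fell (beside 3.08%). These pairs were taken from the split seen in the same controls. Leaving out either pair moves genes that split this way by construction, so these counts are no support for a direction.

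Markers of the cells that could supply collagen were looked at beside these values, with 2.52% of all tested genes called lower as the background. Pericyte and smooth muscle markers summed to 88.0 to 128 FPKM in AAV2-shCX36 and 118 to 180 FPKM in AAV2-scramble libraries, and 1 of 8 tested, Vtn, fell (log2 -0.54, adjusted p = 0.0332). Vtn made up most of that sum, and without it the list came to 37.9, 25.5, 18.4 and 39.3 FPKM in AAV2-shCX36 libraries, against 47.2, 59.9, 19.3 and 7.52 FPKM in AAV2-scramble libraries, with a median log2 difference of 0.09 over the 8 tested. Fibroblast, scleral and meningeal markers summed to 13.9 to 22.2 and 7.83 to 26.9 FPKM with none called in limma, and none at an unadjusted p under 0.05, of 2 tested. Müller glia, which adjoin the inner limiting membrane, had 5 of 11 markers called lower (Glul, Rlbp1, Aqp4, Kcnj10 and Abca8a) and summed to 378 to 603 FPKM in AAV2-shCX36 and 632 to 1046 FPKM in AAV2-scramble libraries. Microglia and macrophage markers had 1 of 10 called lower (P2ry12) and summed to 155 to 237 and 136 to 554 FPKM. Rods had 7 of 10 called lower, cones 3 of 8 (Opn1sw, Pde6c and Gngt2) and amacrine and bipolar cells 2 of 15 (Tfap2b and Calb1). Oligodendrocyte markers summed to 10.7 to 12.1 FPKM in AAV2-shCX36 and 11.5 to 183 FPKM in AAV2-scramble libraries, cornea markers to 2.05 to 10.5 and 0.435 to 3.25 FPKM, and astrocyte markers to 6.80 to 13.9 and 5.66 to 15.6 FPKM. Aldh3a1 carried the difference in the cornea sum, and without it that list came to 0.39 to 0.653 and 0.32 to 0.999 FPKM. None of these 3 lists, nor pigment epithelium, skeletal muscle or ganglion cells, had a marker called in limma, and 8 of their markers had an unadjusted p under 0.05. Of these 7 were higher: 5 of 12 tested ganglion cell markers, 1 of 5 astrocyte markers and the 1 tested cornea marker. The 1 lower was a ganglion cell marker. None of the 6 oligodendrocyte, 1 pigment epithelium and 1 skeletal muscle markers tested reached this. Of all tested genes 12.3% were higher and 10.3% lower at that threshold. No marker was called higher, and the part of these cells in the collagen values was not tested.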

How the data were processed

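The deposited table holds FPKM per gene for 8 libraries, made by the authors. Per the labels' protocols, total RNA was taken with the RNeasy Micro kit and sequenced as 150-base pairs, and the submitters' processing notes name fastp, HISAT2, HTSeq, R 3.2.0 and DESeq2 with GRCm38 and mm10. The strand setting of the counting is not stated there. FPKM was tested as log2(FPKM + 1) with limma 3.58.1 (R 4.3.3, eBayes with a trend, without block or covariates), over 12858 genes averaging 1 FPKM or more, with Benjamini-Hochberg adjustment over all of them at 0.05. A log2 difference on this scale understates the change of low genes. Single values were tested with scipy 1.17.1. FPKM steps gave whole fragments for 100.0% of tested genes (tolerance 0.01 of a fragment, 0.02 for abundant genes), which voom modelled in 2 alternatives added after the data were seen. Depth was 35820931 to 38890840 fragments, and floors of 3 fragments cover counting error only. No per-library column was left unmatched. Every collagen above the filter is named. Those below it are named where a library reached 1 FPKM, and Col16a1, Col1a1, Col8a2 and the type VI chains were named after their values were seen. Of each handling list up to 3 genes with the smallest unadjusted p under 0.05 are named, and of marker lists the called genes, except that rod markers are given as a count. Members and lists were chosen with earlier results of these data known. Sequences are RefSeq's (GRCm38.p6). The limma script was tested on simulated data.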

Additional observations from a re-analysis of the deposited data

Results flagged for a closer look

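Within a group of 4 libraries, a highest or lowest library was looked for whose gap to the nearest other, as a share of the range of the group, exceeds Dixon's critical value. Of 56 groups of values 3 met this, where chance gives about 1 in 20. Col18a1 had 8.69 FPKM in AAV2-shCX36 1, against 1.05 to 2.26 FPKM in the other AAV2-shCX36 libraries. Tgm2 had 16.6 FPKM in the same library, against 8.97 to 10.2 FPKM in the others. Col9a1 had 10 FPKM in AAV2-scramble 2, against 3.67 to 4.52 FPKM in the other AAV2-scramble libraries.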

How the results depend on the processing

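With each library left out in turn 0 to 1 collagens rose. The number of collagens that rose was 0 with no filter, with the replicate block and without AAV2-shCX36 1 and 4, 2 (Col5a3 and Col6a2) with quantile normalization, no variance trend or library weights, 3 at an adjusted p under 0.1 and 4 without AAV2-scramble 1 and 2, and 5 fell without AAV2-scramble 3 and 4. Same-numbered libraries had correlations of their deviations of 0.128, -0.302, 0.226 and -0.269, and differently numbered ones of -0.239 to 0.271. The labels do not say whether the replicate numbers pair the samples, and these values cannot decide it. With the replicate block Col6a2 had an adjusted p of 0.086 in limma. Of the handling genes 1 rose (Tgm2) with a filter of 5 FPKM, median-of-ratios scaling, quantile normalization or library weights, 3 at an adjusted p under 0.1, and 8 without AAV2-scramble 1 and 2. Against AAV2-scramble 1 and 2 alone 3 rose and 20 fell. With 1 library left out 0 to 2 rose and 0 to 1 fell. The Gjd2 log2 difference was -0.88 to -0.51 with 1 library left out (p = 0.0571 each, exact, the smallest possible). Leaving out 1 library gave log2 ranges across 0 for Col11a2 (-0.03 to 0.25), Col17a1 (-0.42 to 0.17), Col27a1 (-0.42 to 0.08), Col5a1 (-0.20 to 0.01), Col6a1 (-0.27 to 0.08) and Col7a1 (-0.40 to 0.07). Without AAV2-scramble 1 and 2 the sign turned for Col17a1 (0.64), Col20a1 (0.02), Col23a1 (0.16), Col27a1 (0.39), Col6a1 (0.26) and Col7a1 (0.33). Without AAV2-scramble 3 and 4 it turned for Col11a2 (-0.20), Col4a5 (-0.11) and Col9a3 (-0.21), and without AAV2-shCX36 1 and 4 for Col18a1 (-0.07), Col4a5 (-0.08) and Col9a3 (-0.02). None of these had passed with all 8 libraries, and the cause was not tested. Of 678 comparisons of a named gene with an alternative, 614 kept direction and side of the threshold, 31 newly passed in the same direction, 9 no longer passed and 24 had the opposite direction, of which 1 passed (Col17a1 without AAV2-scramble 1 and 2).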

Other observations

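All 44 collagens together summed to 117, 81.7, 84 and 121 FPKM in AAV2-shCX36 libraries 1 to 4, against 100, 137, 67.4 and 61.2 FPKM in AAV2-scramble libraries 1 to 4. The means were 101 ± 20.8 and 91.4 ± 34.8 FPKM (SD, n = 4 each). Col4a1 and Col4a2 made up 27.7%, 26.4%, 27.9% and 34.9% of that sum in AAV2-shCX36 libraries, against 16.9%, 16.9%, 15.8% and 20.4% in AAV2-scramble libraries, so the groups did not overlap in this share, which was chosen after its values were seen and was not tested.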
